A study of Mus musculus with 9 samples.

Results

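The TRIM family is a large group of ubiquitin ligases, and 58 of the 18193 genes that the arrays measured belong to it. They were taken by name: every gene whose symbol is Trim followed by a digit and that has a probe set naming it alone. Where a member had several such probe sets, the one with the highest mean over the 9 arrays stood for it. Of the 58 members, 43 had a mean of at least 2.66 on the log2 scale, the 40th percentile of all probe sets, and were tested. The other 15 were too dim to test.

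The RNA came from C57BL/6 mice, from adherent spleen cells picked with magnetic beads for CD11b, an integrin of myeloid cells. The threat group holds 6 animals that had met repeated social threat, with 1 array for each animal. The control group holds 6 animals kept without threat, pooled by 2 into 3 arrays, so that a control value averages 2 animals and a threat value does not. The labels used here name neither sex nor age. The comparison asks which genes change their level in these cells under threat. Values are deposited log2 expression values, and a difference is threat minus control on that scale.

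TRIM proteins are named after a tripartite motif, a RING finger, 1 or 2 B-boxes and a coiled coil, followed in most members by a domain that picks the target. The RING finger recruits a ubiquitin-charged conjugating enzyme, so that the target is marked for degradation or, with other ubiquitin chains, for signalling. A part of the family is switched on by interferon and acts in antiviral sensing or blocks viruses directly, while others silence chromatin, sit in membranes or serve in muscle, nerve or red cell precursors. Interferon-induced genes are commonly read through a promoter element with a repeated GAAA core, which interferon regulatory factors and STAT complexes bind.

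The family split in threat animals. Trim13, which encodes a ligase anchored in the endoplasmic reticulum, rose 2.85-fold, more than any other tested member. Of the 11 tested interferon-inducible members 6 rose, led by Trim21, Trim30d, Trim30a and Trim12a. Trim30d, Trim30a and Trim12a lie in 1 gene cluster, so their rises may not be independent. The largest falls among tested members were those of Trim44, Trim59, Trim23 and Trim28. Of the 43 tested members, 10 were higher and 9 lower with limma at a Benjamini-Hochberg adjusted p under 0.05. That is 44.2% of the members, against 45.8% of all 13078 genes tested, 23.8% of which were higher and 22.0% lower. The family as a whole was therefore called about as often as any gene on these arrays, and what follows concerns which members moved. The groups did not overlap in 17 of the 43 members, and in 41.8% of all genes tested. Most of the called differences were small, with 14 of 19 under 1.5-fold. Taken without sign, the members' median difference was 0.15, as it was over all genes.

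**Figure D1:**
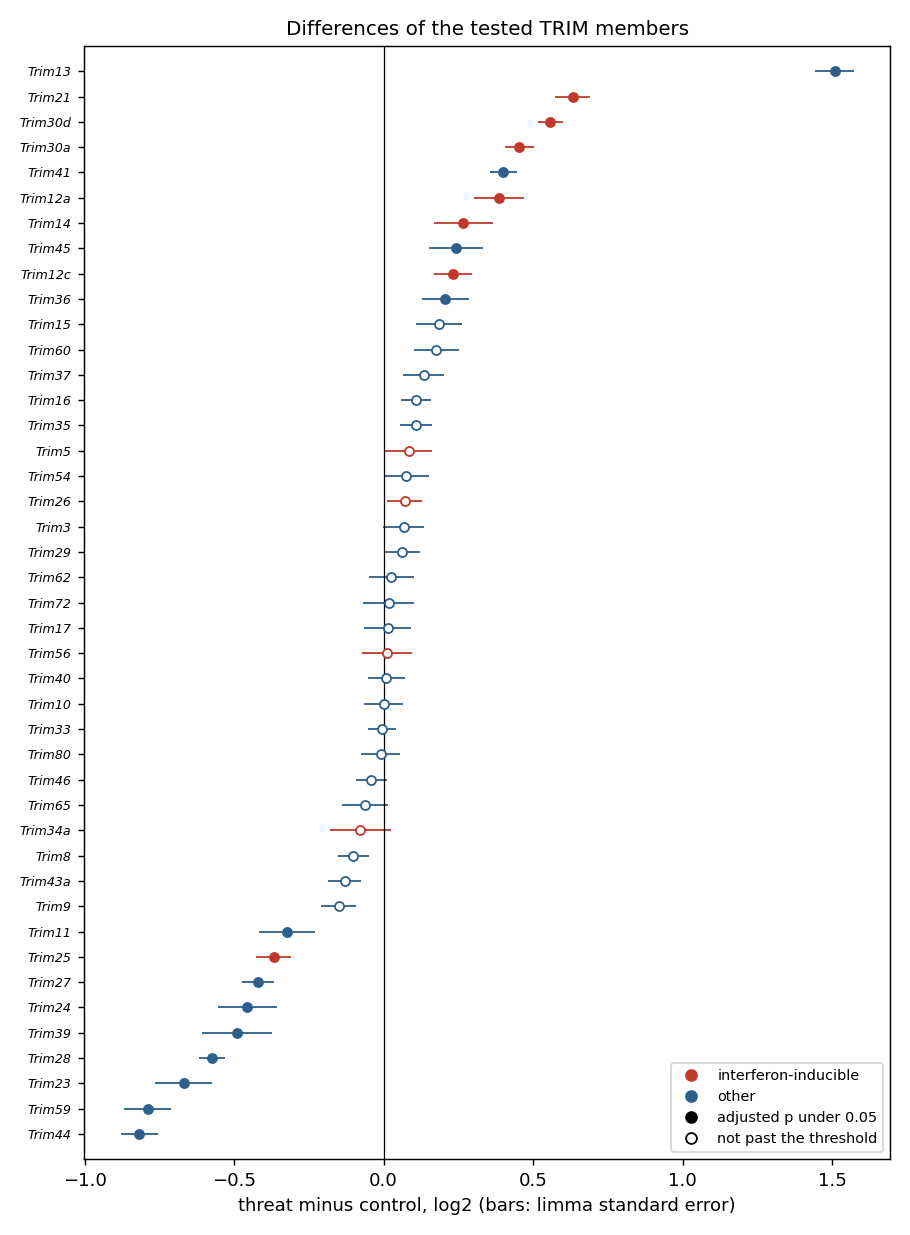
Difference between threat and control for each of the 43 tested members, on the log2 scale, with limma's standard error as bars; red marks interferon-inducible members, blue the others, and filled points passed the threshold. Trim13 stands at 1.51, apart from all others, and 6 of the 11 red points are filled and right of 0.

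**Figure D2:**
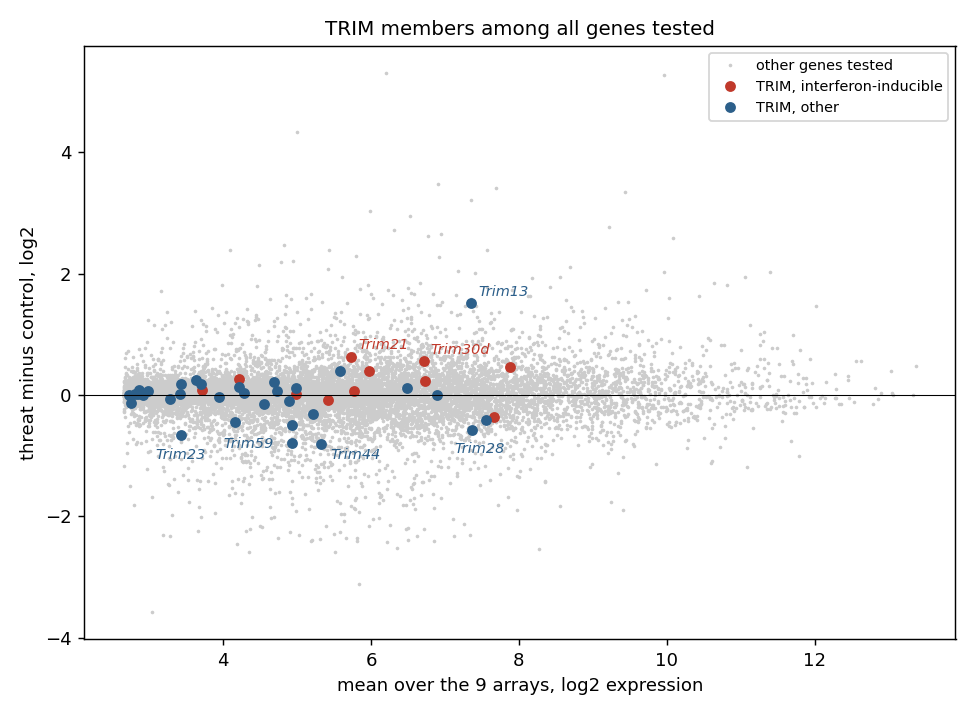
Each grey point is a gene tested, placed by its mean over the 9 arrays and its difference between threat and control, both on the log2 scale; TRIM members are drawn in red and blue, and those past 0.5 in either direction are named. Trim13 is the highest of the named members, and 1468 genes differ by at least 1.5-fold in either direction.

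The interferon-inducible members were set apart by a list taken from textbook knowledge, of 17 genes, of which 13 had a probe set of their own and 11 were tested. Of these 11, 6 rose and 1 fell, with a median difference of 0.23. The 6 include Trim12a, Trim12c, Trim30a and Trim30d, which lie in 1 gene cluster and may not be independent. Of the 32 other tested members, 4 rose (12.5%) and 8 fell (25%), with a median of 0.0048. Over all genes tested 23.8% rose and 22.0% fell, with a median of 0.03, so the share of falls among the other members was close to that of all genes. The mean of the 11 interferon-inducible members ran from 5.72 to 5.78 in the control pools and from 5.92 to 5.99 in the threat animals. That of the 32 others ran from 4.499 to 4.505 in control and from 4.44 to 4.46 in threat arrays, so in each list the arrays of the groups did not overlap. The same held for every list of cell type markers and for the interferon-stimulated effectors, so it does not set the TRIM lists apart. The difference between the lists was not tested. On a narrower list without Trim5, Trim6, Trim26, Trim56 and Trim69 the interferon-inducible median was 0.33, and with all probe sets of a gene averaged it was 0.08.

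Promoter stretches of the rising interferon-inducible members are shown because they hold the letters of that element close to the start. The motif GAAANNGAAA was searched on both strands of the RefSeq promoter table (GRCm38.p6), whose entries run from 250 bases before to 50 after a gene's start. It was present in 3.99% of 27025 genes with a promoter entry. It was present in 8 of the 12 interferon-inducible members with an entry (66.7%) and in 1 of the 35 others (Trim2, which was too dim to test). Of the 8, Trim5, Trim12a, Trim12c, Trim30a, Trim30d and Trim34a lie in 1 gene cluster on chromosome 7. Trim21 and Trim26 lie outside it. Genes of 1 cluster can share sequence, so the 8 are not taken as independent cases. In the stretches below, Trim30a and Trim30d shared a run of up to 49 bases, while Trim12a shared at most 9 with either. Among all genes, those called higher held it in 4.18% and those called lower in 3.98%. The list was chosen as interferon-inducible, so the share in its promoters is a description of the list. The stretches below run from 60 bases before to 30 after the start, 5′ to 3′ along the gene, with motif matches in capitals. They are those of the 4 called interferon-inducible members with the largest differences that hold a match, and of Trim25, which fell and was added after its values were seen. Trim30a has 2 starts in the table.
Trim21 (chr7:102565453-102565542, minus strand): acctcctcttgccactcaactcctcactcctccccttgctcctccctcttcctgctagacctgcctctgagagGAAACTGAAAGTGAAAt
Trim30d (chr7:104507820-104507909, minus strand): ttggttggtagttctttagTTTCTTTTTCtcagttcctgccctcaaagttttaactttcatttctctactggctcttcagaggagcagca
Trim30a, first start (chr7:104465164-104465253, minus strand): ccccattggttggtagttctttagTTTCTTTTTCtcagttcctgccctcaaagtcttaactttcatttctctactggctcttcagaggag
Trim30a, other start (chr7:104446096-104446185, minus strand): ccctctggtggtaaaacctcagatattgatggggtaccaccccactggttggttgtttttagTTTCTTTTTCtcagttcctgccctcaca
Trim12a (chr7:104315466-104315555, minus strand): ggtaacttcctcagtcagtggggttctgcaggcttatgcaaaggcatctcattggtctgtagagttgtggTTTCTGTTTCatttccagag
Trim25 (chr11:88999343-88999432, plus strand): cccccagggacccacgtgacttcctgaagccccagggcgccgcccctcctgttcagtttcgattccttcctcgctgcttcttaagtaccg

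In Trim21, 2 matches overlap into a run of 16 bases, at positions 74 to 89 of the stretch. Trim30d and Trim30a carry the match on the opposite strand and share a run of up to 49 bases that contains it. Trim12c also holds a match on the opposite strand. Trim14 has no entry. No match lay in the whole promoter entry of Trim25, nor in those of Trim56, Trim6 and Trim69. Trim26, Trim34a and Trim5 hold the motif, and their differences did not pass the threshold. Presence of these letters and a rise therefore did not coincide in every member.

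Trim21 encodes a cytosolic receptor for the constant part of antibodies, which marks antibody-coated particles for degradation. Its values were 5.36, 5.31 and 5.26 in the control pools and ran from 5.83 over a median of 5.94 to 6.04 in the threat animals. All threat animals lay above all pools. Trim21 rose by 0.63 (SE 0.058, adjusted p = 2.1e-06), or 1.55-fold. Its second probe set moved likewise, by 0.48 (SE 0.097).

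Trim30a encodes a mouse protein known to restrain Toll-like receptor signalling, and Trim30d is its neighbour in the same gene cluster. In the RefSeq order of coding genes, 10 TRIM genes follow each other with 1 other gene among them: Trim6, Trim34a, Trim5, Trim12a, Trim34b, Trim12c, Trim30b, Trim30c, Trim30a and Trim30d. Trim30d values were 6.36, 6.33 and 6.33 in the control pools and ran from 6.85 over 6.89 to 6.96 in the threat animals. The groups were narrow and did not overlap, and the difference was 0.56 (SE 0.043, adjusted p = 4.5e-07). Trim30a values were 7.64, 7.55 and 7.53 in the pools and ran from 7.97 over 8.04 to 8.10 in the animals. It rose by 0.45 (SE 0.048, adjusted p = 7.3e-06). Another probe set of each gene rose too, by 0.59 for Trim30a and 0.71 for Trim30d, and so did a probe set shared by both (0.44). Some probe sets of this cluster name more than 1 gene, so which gene each probe set measured is uncertain.

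Trim12a and Trim12c are rodent relatives of TRIM5, a restriction factor against retroviruses. Trim12a values were 5.79, 5.51 and 5.84 in the control pools and ran from 5.95 over 6.14 to 6.21 in the threat animals. All animals lay above all pools, although pool 3-4 was well below the other two, and the rise was 0.39 (SE 0.083, adjusted p = 0.0020). Trim12c values were 6.61, 6.49 and 6.65 against 6.71 to 6.95 with a median of 6.81. It rose by 0.23 (SE 0.064, adjusted p = 0.0099), a call that was lost without control pool 3-4 (0.18, adjusted p = 0.058). Its second probe set differed by 0.17 (adjusted p = 0.32), and with both averaged the difference was 0.20 (adjusted p = 0.075). Trim5 itself was at 3.66 ± 0.061 (SD, n = 3) in control and 3.74 ± 0.14 (SD, n = 6) in threat cells and differed by 0.08 (adjusted p = 0.41). Of Trim34a, the own probe set differed by -0.08 (SE 0.10, adjusted p = 0.57), while a probe set shared with Trim34b rose by 0.25 (SE 0.053). A probe set shared by Trim30b and the predicted gene Gm38525 rose by 0.98 (SE 0.096), from 4.62 to 5.60. Values for shared probe sets come from a fit of each bright probe set on its own, in which 39.8% of 27022 probe sets were called.

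Trim14 encodes a member without a RING finger that serves as an adaptor of the mitochondrial antiviral protein MAVS. Its values were 4.08, 4.19 and 3.84 in the control pools and ran from 4.11 over 4.34 to 4.46 in the threat animals. The lower animals fell within the range of the pools. The rise was 0.27 (SE 0.098, adjusted p = 0.042). That call was lost without pool 1-2 (adjusted p = 0.074) or 5-6 (0.226), and without threat animal 1 (0.074), 3 (0.079), 5 (0.075) or 6 (0.053). It was also lost with no filter (0.053) and with array weights (0.080). With a dim second probe set averaged in, the difference was 0.07 (adjusted p = 0.40). With the replicate block described in the closing section the adjusted p was 0.061.

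Trim25 encodes the ligase that activates the RNA sensor RIG-I, and it went the other way. Its values were 7.86, 7.86 and 8.03 in the control pools and ran from 7.46 over 7.55 to 7.65 in the threat animals. All threat animals lay below all pools, and Trim25 fell by 0.37 (SE 0.059, adjusted p = 2.1e-04). A second probe set fell by 0.39 (SE 0.070), and the remaining one differed by -0.04 (adjusted p = 0.72). Trim26 and Trim56, regulators of the same sensing pathways, did not pass: Trim26 differed by 0.07 (SE 0.059, adjusted p = 0.36), Trim56 by 0.01 (SE 0.083, adjusted p = 0.93). Trim6 and Trim69 were too dim to test, with means of 2.10 and 1.90 over the arrays. Trim30c, Trim34b and Trim38 have no values of their own and were not analysed here.

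**Figure D3:**
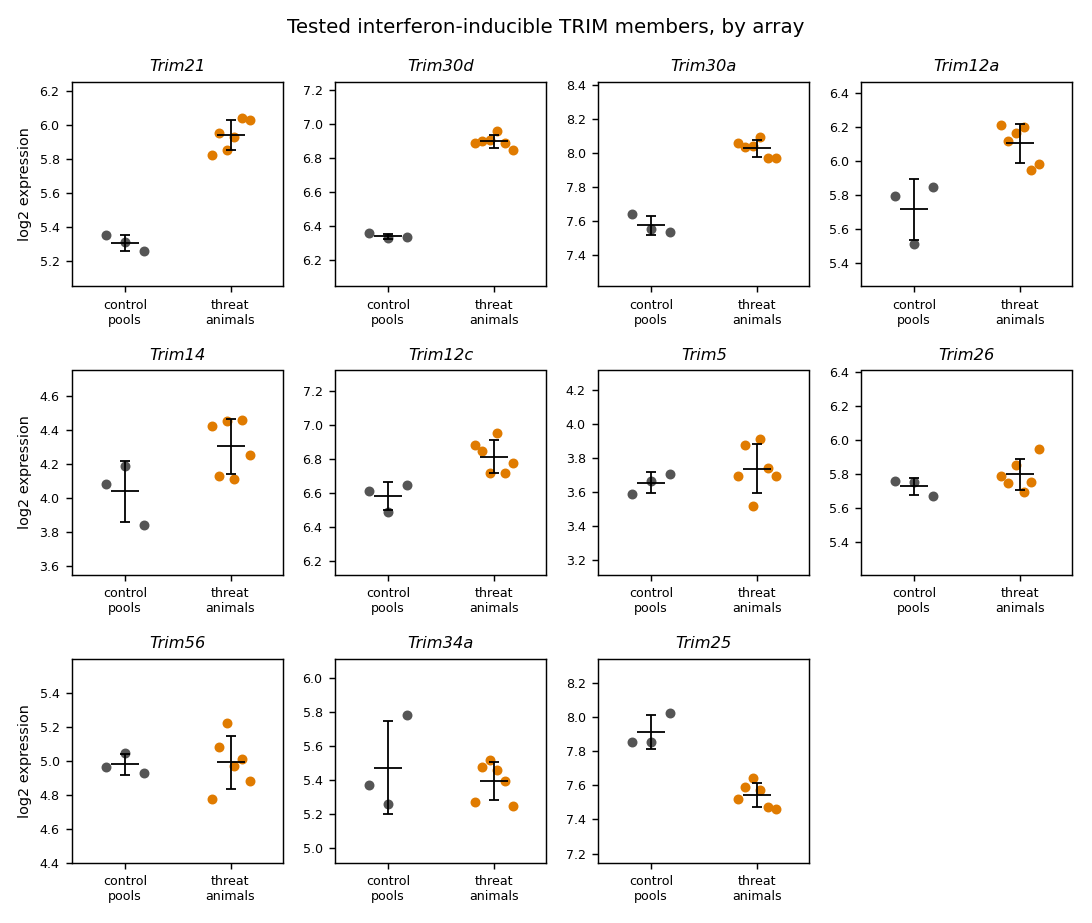
log2 expression of the 11 tested interferon-inducible members, with 1 point for each of the 3 control pools (grey) and 6 threat animals (orange), and the mean with its SD in black; each panel has its own range. Trim21, Trim30d and Trim30a show all threat points well above the pools, and Trim25 shows them all below.

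Among the members outside the interferon list, the membrane-anchored ligases moved in opposite directions. Trim13 takes part in the degradation of misfolded proteins at the endoplasmic reticulum. Its values were 6.36, 6.34 and 6.35 in the control pools and ran from 7.75 over 7.81 to 8.04 in the threat animals. The groups were far apart compared with their spread, and the difference was 1.51 (SE 0.064, adjusted p = 2.5e-09). By absolute size this was the 180th difference of all genes tested. Trim13 has 1 probe set on the array, so no second probe set bears on it. Trim59 also has a membrane segment. Its values were 5.47, 5.37 and 5.54 in the pools and ran from 4.497 over 4.72 to 4.83 in the animals. It fell by 0.79 (SE 0.080, adjusted p = 4.6e-06), and its second probe set fell by 0.29 (SE 0.083).

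Trim44, a B-box protein without a RING finger, had the largest fall among tested members. Its values were 5.85, 5.95 and 5.82 in the control pools and ran from 4.93 over 5.05 to 5.16 in the threat animals, with no overlap. It fell by 0.82 (SE 0.062, adjusted p = 3.4e-07), while a weaker probe set at 3.20 in control cells differed by -0.11 (adjusted p = 0.17). Trim23 joins the tripartite motif to a GTPase domain of the ARF type. Its values were 3.98, 3.67 and 3.97 in the pools and ran from 3.03 over 3.15 to 3.40 in the animals. The groups did not overlap, and the fall was 0.67 (SE 0.095, adjusted p = 8.6e-05).

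The members with a PHD finger and a bromodomain act at chromatin. Trim28, also known as KAP1, is the corepressor through which KRAB zinc finger proteins silence genes and endogenous retroviruses. Its values were 7.78, 7.73 and 7.76 in the control pools and ran from 7.14 over 7.18 to 7.21 in the threat animals. Both groups were narrow and apart, and Trim28 fell by 0.57 (SE 0.042, adjusted p = 2.7e-07). Its other probe set fell by 0.96 (SE 0.049). Trim24, a cofactor of nuclear receptors, fell by 0.46 (SE 0.099, adjusted p = 0.0022), from 4.47 ± 0.049 (SD, n = 3) to 4.01 ± 0.20 (SD, n = 6). A second probe set of Trim24 differed by -0.20 (SE 0.091, adjusted p = 0.099), and the remaining one was dim. Trim33, a regulator of SMAD signalling, differed by -0.0043 (SE 0.047, adjusted p = 0.95), although another of its probe sets fell by 0.31 (SE 0.079). Trim66 was too dim to test.

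The remaining called members were Trim39, Trim11, Trim27, Trim41, Trim45 and Trim36, which apart from Trim27 were named after their values were seen. Trim39 fell by 0.49 (SE 0.12, adjusted p = 0.0042), with control pools at 5.33, 4.95 and 5.497 and threat animals from 4.57 to 5.02, which overlap. Trim11 fell by 0.32 (SE 0.093, adjusted p = 0.013), and its call rested on pool 5-6, without which it differed by -0.18 (adjusted p = 0.065); with threat animals averaged by number the adjusted p was 0.054. Trim27 fell by 0.42 (SE 0.054, adjusted p = 3.4e-05), from 7.83 ± 0.072 (SD, n = 3) to 7.41 ± 0.064 (SD, n = 6). Of its 6 probe sets 3 fell, 1 rose and 2 were dim, and where probe sets whose names carry no mark of several transcripts were preferred, the gene rose by 0.21 (adjusted p = 0.0019). The probe set that rose stood at 3.50 in control cells, against 6.24 to 7.83 for the 3 that fell. With all 6 probe sets averaged, dim ones included, Trim27 differed by -0.09 (adjusted p = 0.065). Trim41 rose by 0.40 (SE 0.046, adjusted p = 1.3e-05), from 5.32 ± 0.051 (SD, n = 3) to 5.72 ± 0.038 (SD, n = 6), but its other probe set differed by -0.11 (adjusted p = 0.53 when that one was preferred), and the average of both by 0.14 (adjusted p = 0.17). That other probe set was weaker, at 3.86 in control cells.

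Trim45, which carries a filamin-type repeat, and Trim36 lay close to the threshold. Trim45 rose by 0.24 (SE 0.090, adjusted p = 0.044), a call lost without pool 1-2 (adjusted p = 0.16), pool 5-6 (0.187), or threat animal 1 (0.079), 3 (0.081), 4 (0.058), 5 (0.055) or 6 (0.080). Trim36 rose by 0.21 (SE 0.078, adjusted p = 0.048), a call lost without pool 1-2 (0.068), pool 5-6 (0.24), or threat animal 1 (0.078), 5 (0.079) or 6 (0.073). Over all alternatives that gave a value, Trim45 lost its call under 9 of 21 and Trim36 under 11 of 22. The count of 4 rises outside the interferon list fell to 2 without pool 1-2 or 5-6, or without threat animal 1, 5 or 6.

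**Figure D4:**
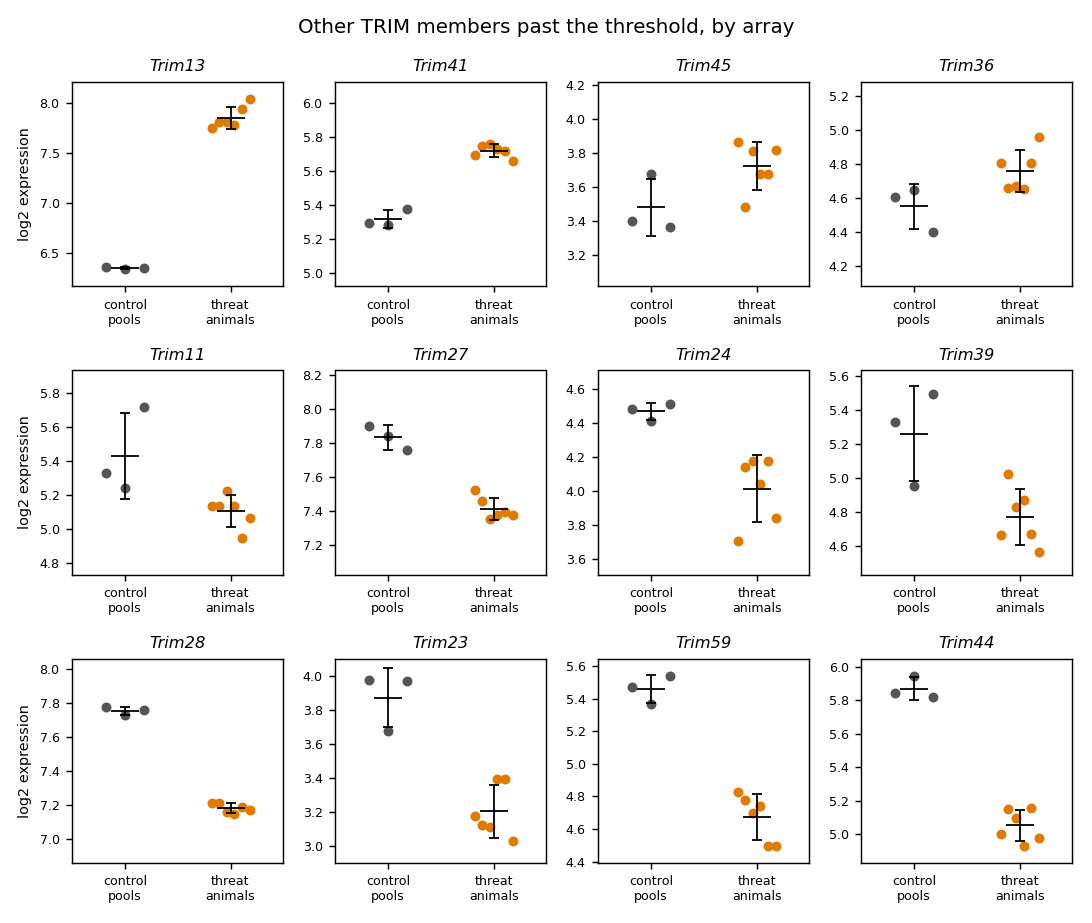
log2 expression of the 12 called members outside the interferon list, with 1 point for each of the 3 control pools (grey) and 6 threat animals (orange), and the mean with its SD in black; each panel has its own range. Trim13 rises from about 6.35 to 7.86, and Trim28, Trim44 and Trim59 show all threat points below the pools.

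The other 24 tested members did not pass. Trim8, Trim35, Trim16 and Trim37 differed by -0.10, 0.11, 0.11 and 0.13 (adjusted p from 0.098 to 0.132). Trim37 passed without control pool 3-4 (0.21, adjusted p = 0.030), as did Trim16 (0.15, adjusted p = 0.048) and Trim9 (-0.18, adjusted p = 0.0499). Trim9 also passed without threat animal 5 (-0.17, adjusted p = 0.031). With all arrays Trim9, a member known from neurons, differed by -0.15 (adjusted p = 0.056). Trim15 differed by 0.18 (adjusted p = 0.067) although its groups did not overlap. It passed with control pools at weight 2 (adjusted p = 0.036) and with threat animals averaged by number (0.033). Trim3, of the members with NHL repeats, differed by 0.07 (adjusted p = 0.47), and its relatives Trim2, Trim32 and Trim71 were too dim to test.

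Some members stood close to the filter. Trim10, known from red cell precursors, stood at 2.73 in both groups and differed by 0.0008 (SE 0.066, adjusted p = 0.99). Trim54 and Trim72, known from muscle, had means of 2.86 and 2.85. Trim63, also known from muscle, was far below the filter at 1.38. Repeated identical values are common at this level: Trim72 was listed at exactly 2.843 in 6 of the 9 arrays. Just outside the filter was Trim47, at 2.64. Of the 15 dim members, Trim7 alone had groups that did not overlap. The share of such genes among all dim genes was not computed. Trim7 was at 3.22, 2.97 and 2.70 in the control pools and 2.03 to 2.38 in the threat animals. It was not tested because its mean over the 9 arrays was 2.43. Its difference was -0.80, while its other probe sets, also dim, differed by -0.17 and 0.02. In all 43 tested members both group means were above the filter.

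Genes that work with the TRIM ligases were taken as lists. For comparison, 23.8% of all genes tested rose and 22.0% fell, with a median of 0.03. Of the 4 TRIM proteins known by other names, 3 were tested. Mefv, which encodes the inflammasome sensor pyrin, rose by 0.45 (SE 0.075, adjusted p = 2.9e-04). Pml, which organises nuclear bodies and is itself interferon-inducible, fell by 0.41 (SE 0.091, adjusted p = 0.0025), and Mid1 differed by -0.0045 (adjusted p = 0.98). Of 15 tested genes of cytosolic RNA and DNA sensing, 8 rose and 2 fell, with a median of 0.13. Ikbke, a kinase that activates interferon regulatory factors, rose by 1.93 (SE 0.098, adjusted p = 1.1e-08). Dhx58, a relative of RIG-I, rose by 0.79 (SE 0.052, adjusted p = 9.7e-08). The RIG-I gene, named Ddx58 in the table, rose by 0.67 (SE 0.053, adjusted p = 5.7e-07) while its activator Trim25 fell. Traf6, a ubiquitin ligase of Toll-like receptor signalling, fell by 0.36 (SE 0.060). The other gene that fell, Tab2, differed by -0.12 (adjusted p = 0.0491), and the count of falls was 1 without any 1 of the 9 arrays.

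Of 11 tested partners in ubiquitin and ISG15 conjugation, 5 rose and 2 fell, with a median of 0.12. That is 45% and 18%, against 23.8% and 22.0% of all genes tested, so the falls were near the general share. Usp18, which removes ISG15, rose by 1.15 (SE 0.064, adjusted p = 2.2e-08), and Herc6, the ISG15 ligase of mice, by 0.41 (SE 0.050, adjusted p = 2.2e-05). Among 8 interferon receptor and signalling genes the median was 0.26, with 5 rises (62.5%) and 2 falls (25%, again near the general share). Tyk2, a receptor kinase, rose by 0.53 (SE 0.062, adjusted p = 1.5e-05), and the receptor chain gene Ifngr1 fell by 0.44 (SE 0.052, adjusted p = 1.6e-05). The list of 19 interferon-stimulated effectors had a median of 0.57, with 16 rises and no fall. With array weights, and without control pool 5-6, 1 of them fell. Ifit1 rose by 1.36 (SE 0.076, adjusted p = 2.4e-08) and Oas1a by 0.99 (SE 0.068, adjusted p = 1.4e-07). The mean of this list ran from 6.68 to 6.71 in control and from 7.18 to 7.30 in threat arrays.

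Cell type markers moved in the same arrays, in which 23.8% of all genes tested rose and 22.0% fell. In bulk samples fewer cells of a type and less RNA per cell cannot be told apart. Itgam, which encodes CD11b, and the macrophage genes Csf1r and Lyz2 were present in both groups, at 7.93, 11.76 and 12.74 in control and 8.50, 11.95 and 12.86 in threat cells. Of 11 granulocyte markers 10 rose, with list means of 8.69 to 8.84 in control and 10.19 to 10.69 in threat arrays. Of 8 monocyte and macrophage markers 5 rose and 1 fell (9.62 to 9.71 against 9.82 to 9.89). The marker that fell was Cx3cr1, with a difference of -0.68 (SE 0.057, adjusted p = 9.6e-07). Of 8 genes of dividing cells 7 rose and 1 fell (5.74 to 5.84 against 6.45 to 7.03). Markers of B cells (6 of 7, 6.77 to 6.93 against 4.81 to 5.17), natural killer cells (5 of 6, 5.47 to 5.66 against 3.86 to 4.11), dendritic cells (5 of 6, 6.58 to 6.69 against 5.48 to 5.54) and T cells (3 of 5, 4.44 to 4.53 against 3.99 to 4.16) fell, and none of them rose. Of 4 tested erythroid markers 1 rose and 1 fell, and 3 more were dim. Those shares, 25% each way, were near the shares over all genes. The part of these markers in the TRIM differences was not tested.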

How the data were processed

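The deposited values are log2 expression values on Affymetrix MOE430 arrays, for which the submitters' processing notes name RMA; its version is not given in the sources used here, and the log base was taken from the values (0.607 to 13.567). RMA gives no detection call. Array medians ran from 3.19 to 3.22. The number of arrays limits the precision. Symbols came from the platform annotation, updated through Entrez numbers to RefSeq names (34741 of 34945 probe sets naming 1 gene), which changed no member's symbol.

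limma 3.58.1 under R 4.3.3 gave the differences (lmFit and eBayes), with an intercept and 1 coefficient for threat minus control. The fit covered 13078 genes at or above the 40th percentile of probe sets. Its two-sided p-values were adjusted by Benjamini-Hochberg, with the threshold at 0.05. Lists were described by counts and medians, without a test. The steps were tested on simulated data. Members and lists were chosen with earlier results of these data known. Named were all interferon-inducible members, other called members past 0.5, the 5 with the highest means, the 3 with the largest adjusted p, and from each related list the 2 genes with the smallest p. Among the related genes, Ddx58, Traf6, Tab2 and Mid1 were named outside this rule, with their values known. Nothing says whether animals were housed or processed together, so p-values measure the spread between these arrays.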

Additional observations from a re-analysis of the deposited data

Results flagged for a closer look

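Among the 43 tested members, 1 had a threat animal far from the other five: Trim72 was at 3.176 in threat animal 6, where the next value was 2.843. Chance gives about 1 such case in 20 groups, and Trim72 lies close to the filter.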

How the results depend on the processing

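Of the 19 called members, Trim13, Trim21, Trim30a, Trim30d, Trim25, Trim28, Trim44, Trim59, Trim24 and Trim39 kept their direction and call under all 22 alternatives, Trim12a under the 21 and Trim23 under the 20 that gave them a value. Where probe sets whose names carry no mark of several transcripts (_x_, _s_ or _a_) were preferred, Trim27 was at 0.21 and Trim41 at -0.11, as other probe sets then stood for them. The count of higher members was 6 instead of 10 with all probe sets of a gene averaged. Rises outside the interferon list numbered 2 instead of 4 with no filter, with that average and with array weights. The interferon-inducible median was 0.0837 with no filter and with that average, and 0.33 on the narrower list; the other median was -0.0408 with the 60th percentile as filter. For these medians, another filter left each member's difference as it was and changed the members counted. With no filter 13 interferon-inducible and 45 other members were counted, with the 60th percentile 10 and 19, against 11 and 32. The cause of the other shifts was not tested. Without 1 array at a time, called members numbered 15 to 21 (7 to 11 higher, 8 to 10 lower), of them 6 to 7 interferon-inducible (5 to 6 higher, 1 lower) and 9 to 15 others (2 to 6 higher, 7 to 9 lower), and the medians ran from 0.1685 to 0.2463 and from -0.0172 to 0.0153. Animals and pools share only a number: the correlations of their deviations were 0.149, -0.152 and -0.029. With these numbers as a replicate block 18 members were called; Trim14 and Trim36 were lost (adjusted p = 0.061 and 0.066) and Trim9 was gained (0.047). Without a detection call, whether RMA values near 2.66 lie above background was not tested. This limits the dim members and the 6 tested members within 0.3 above the filter.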
